A study of Mus musculus with 8 samples.

Results

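Dcn, Bgn, Lum, Ogn, Pcolce, Igf2, Ptgds, Aldh1a2, Slc6a20a and Foxc1, 10 genes that mark the fibroblasts of the meninges and are not collagens, were followed in the cortex of mouse embryos with and without the kinase NUAK1. They were picked by symbol, each is 1 row of the count table, and the table has 21165 rows. Poly-A RNA of whole cortices at E18.5 was sequenced from 4 Nuak1 KO embryos, which lack the gene in every cell, and from 4 WT embryos. NUAK1 belongs to the family of kinases related to AMPK, and KO pups die at birth, so E18.5 was about as late as KO brains could be taken. All embryos had a C57Bl/6JRj background. By the labels the KO embryos were 2 males and 2 females and the WT embryos 1 male and 3 females, and they came from 3 litters. Columns of the table carry only the genotype and a running number, so that no library could be tied to an embryo, a litter or a sex. Libraries are therefore called KO R1 to KO R4 and WT R1 to WT R4. They held between 9643711 and 27014858 counts, KO R1 12748423 of them. Levels are given as normalized counts, the counts a gene would have in a library of average effective size after TMM normalization. Nuak1 had 20.5, 13.7, 11.1 and 11.5 normalized counts in KO R1 to R4 and 1377, 1445, 1118 and 877 in WT R1 to R4, so that all 8 columns followed their genotype label.

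The meninges are the membranes around the brain, and their fibroblasts come from neural crest and mesoderm, not from the cortical neuroepithelium. These cells lay down the collagen and proteoglycan matrix of the pia and arachnoid, take part in the barrier at the brain surface and release factors that act on the cortex below, among them retinoic acid, insulin-like growth factor 2 and BMPs. In a dissected cortex the genes can also come from perivascular cells and pericytes, and a bulk library cannot tell fewer cells of a type from less RNA per cell. The 10 genes together took between 23.9 and 31.6 CPM (counts scaled to library size) in 7 of the 8 libraries and 271 CPM in KO R1. The collagens Col1a1, Col1a2 and Col3a1 followed the same division. They were chosen with earlier results of these data known, so they are no independent check of fibroblast identity. Col1a1 had 1199 normalized counts in KO R1 and 19.5 to 43.8 in the others, Col1a2 had 2716 against 88.5 to 167, and Col3a1 had 3133 against 92.5 to 227. Since KO R1 stood apart in this way, the comparisons of the 10 genes between genotypes are given with and without it.

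The genes lie on 7 chromosomes. In NCBIM37, the assembly behind the mm9 build of the counts, Dcn (chr10:96942245-96980777) and Lum (chr10:97028135-97035337) are neighbours on the plus strand, 47358 bases apart and 13.04 Mb from the start of Nuak1. Ogn (chr13:49703440-49719869) and Foxc1 (chr13:31898515-31902504, a single exon) share chromosome 13, and Slc6a20a (chr9:123545240-123588003) and Aldh1a2 (chr9:71063596-71144050) share chromosome 9. Igf2 is at chr7:149836673-149852721, Ptgds at chr2:25322229-25325566, Pcolce at chr5:138046331-138055012 and Bgn at chrX:70728941-70741272. Exons of Igf2, Pcolce and Slc6a20a overlap exons of other annotated genes, such as Igf2as, Fbxo24 and Ccr9, and whether reads were counted by strand is not given in the sources used here. Promoter windows of 300 bases, 250 before the transcription start and 50 after it, were found in RefSeq (GRCm38.p6) for 8 of the 10 genes. Those of Ptgds, Aldh1a2 and Ogn are shown because Aldh1a2 and Ptgds had the largest ratios of KO R1 to the next highest library, and Ogn is the gene whose KO and WT libraries did not overlap. They are written 5′ to 3′ on the strand of the gene, and capitals mark matches to the motifs searched.
Ptgds, chr2:25469700-25469999, minus strand: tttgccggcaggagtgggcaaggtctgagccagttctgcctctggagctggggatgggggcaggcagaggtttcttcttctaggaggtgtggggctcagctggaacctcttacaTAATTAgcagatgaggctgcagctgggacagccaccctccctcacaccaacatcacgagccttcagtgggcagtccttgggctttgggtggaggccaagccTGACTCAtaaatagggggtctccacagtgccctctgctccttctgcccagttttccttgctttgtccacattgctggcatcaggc
Aldh1a2, chr9:71215539-71215838, plus strand: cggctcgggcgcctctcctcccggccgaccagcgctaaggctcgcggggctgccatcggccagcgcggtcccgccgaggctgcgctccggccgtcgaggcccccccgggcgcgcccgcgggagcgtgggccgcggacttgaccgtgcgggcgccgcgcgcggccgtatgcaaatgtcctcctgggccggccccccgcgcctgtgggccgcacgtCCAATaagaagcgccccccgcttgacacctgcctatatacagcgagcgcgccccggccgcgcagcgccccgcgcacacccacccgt
Ogn, chr13:49607765-49608064, plus strand: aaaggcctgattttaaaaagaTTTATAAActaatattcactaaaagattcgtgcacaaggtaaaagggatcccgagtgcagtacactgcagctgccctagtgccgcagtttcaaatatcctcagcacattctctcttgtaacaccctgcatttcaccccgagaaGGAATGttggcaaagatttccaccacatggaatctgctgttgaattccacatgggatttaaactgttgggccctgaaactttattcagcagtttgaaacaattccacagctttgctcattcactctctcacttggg

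The 3 windows differ in composition. GC content was 57.7% for Ptgds, 78.0% for Aldh1a2 and 42.3% for Ogn, beside a median of 52.7% over 32851 windows, and the ratio of observed to expected CpG was 0.080, 1.11 and 0.30, beside a median of 0.38. Each motif was searched on both strands. The AP-1 site TGAGTCA is in 5.20% of all windows and, of these genes, in that of Ptgds. The homeobox core TAATTA, its own reverse complement, is in 5.29% of windows and in Ptgds and 1 of the 4 windows of Igf2. The CCAAT box CCAAT, in 37.4% of windows, was found in Aldh1a2, Foxc1 and Igf2, and the GC box GGGCGG, in 35.7%, in Bgn, Foxc1, Igf2, Pcolce and Slc6a20a. The TATA box TATAAA is in 13.6% of windows and in Ogn, where matches on the 2 strands overlap. GGAATG, a TEAD site, is in 14.7% and was found in Igf2 and Ogn. GTAAACA, a forkhead core present in 3.65% of windows, matched none of the 11 windows. No motif was shared by more than 5 of the 8 genes, and a match describes letters only.

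**Figure D1:**
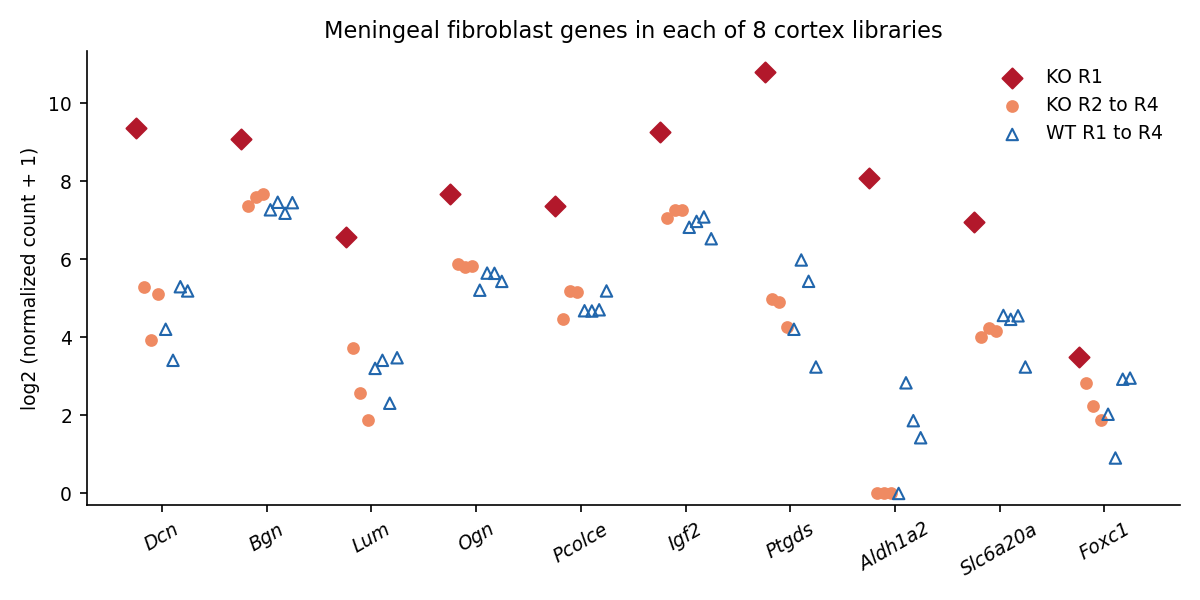
Level of each of the 10 genes in each library, as log2 of the normalized count plus 1 (vertical axis), with a diamond for KO R1, filled circles for KO R2 to R4 and open triangles for WT R1 to R4. The diamond is the highest point of every gene, from 10.2 normalized counts for Foxc1 to 1786 for Ptgds, and Aldh1a2 lies at 0 in 4 libraries.

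Decorin, biglycan, lumican and osteoglycin are small leucine-rich proteoglycans, secreted proteins that bind collagen fibrils and set their spacing, and decorin and biglycan also bind growth factors such as TGF-beta. Dcn had 662, 38.0, 14.2 and 33.7 normalized counts in KO R1 to R4 and 17.5, 9.64, 38.3 and 35.5 in WT R1 to R4. KO R1 was 17.3 times the highest of the other 7, among which the 3 KO libraries lay within the range of the WT libraries. Bgn had 546, 164, 192 and 203 in KO and 153, 175, 144 and 174 in WT. KO R1 was 2.69 times the next library, and KO R3 and R4 came after it, above every WT library, whereas KO R2 was below 2 of them. Lum had 94.8, 12.2, 4.95 and 2.70 in KO and 8.22, 9.64, 3.96 and 10.1 in WT. These are few reads, 74 counts in KO R1 and 3 to 11 in each of the others, and the other KO libraries spread over and beyond the WT range. Ogn had 204, 57.8, 55.1 and 56.0 in KO and 36.0, 49.1, 48.9 and 42.2 in WT. Every KO library was above every WT library, with KO R1 at 3.53 times the next and the other 3 KO libraries within 3 normalized counts of each other.

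Pcolce encodes the enhancer of the protease that removes the C-terminal propeptide of fibrillar procollagens. It had 163, 21.3, 35.3 and 35.1 normalized counts in KO and 24.7, 24.5, 25.1 and 35.5 in WT. KO R1 was 4.59 times the next library, WT R4, and KO R2 was the lowest of all 8. Igf2, a fetal growth factor expressed from the paternal allele in most tissues, acts on cortical progenitors from the cerebrospinal fluid. It had 618, 132, 153 and 153 in KO and 112, 124, 135 and 91.2 in WT. KO R1 was 4.02 times the next, KO R3 and R4 were above every WT library, and KO R2 was below WT R3.

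Ptgds encodes lipocalin-type prostaglandin D synthase, which makes prostaglandin D2, carries retinoids and other lipids, and is a defining product of the arachnoid. It had 1786, 30.4, 29.1 and 18.2 normalized counts in KO and 17.5, 62.2, 42.3 and 8.45 in WT. The 1394 counts in KO R1 compare with 5 to 71 in each other library, and KO R1 was 28.7 times the highest of them, WT R2. Aldh1a2 encodes the retinaldehyde dehydrogenase through which the meninges make retinoic acid. It had 269 normalized counts in KO R1 and 0 in KO R2, R3 and R4, and 0, 6.13, 2.64 and 1.69 in WT. These values come from 210 counts in KO R1 (exact Poisson interval 183 to 240, which covers counting error only), 0 in the other KO libraries together, and 10 in the 4 WT libraries. KO R1 was 43.9 times WT R2, and at least 337-fold higher than the other KO libraries taken at a floor of 3 counts over the group.

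Slc6a20a encodes a sodium-dependent transporter of proline and other imino acids. It had 123, 15.2, 17.9 and 16.9 normalized counts in KO and 22.6, 21.0, 22.5 and 8.45 in WT. KO R1 was 5.44 times the next library, while the other 3 KO libraries were below 3 of the WT libraries and above WT R4. Foxc1, a forkhead transcription factor that meningeal development requires, had 10.2, 6.08, 3.71 and 2.70 in KO and 3.08, 0.876, 6.61 and 6.76 in WT. With 8 counts in KO R1 (exact Poisson interval 3.45 to 15.8) and 1 to 6 in each other library, a small difference in Foxc1 could not be told from counting error. A rise as large as that of Aldh1a2, with 210 counts in KO R1 and 10 over all other libraries, was not seen.

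KO R1 was the highest library for all 10 genes and exceeded 2 times the next for 9 of them, Foxc1 being the exception. Among the 7 genes that passed the filter on low counts this held for all 7, and among all genes that passed it for 80, or 0.63%. It exceeded 4 times the next library for 5 of the 7, and for 26 genes or 0.205% of all that passed. Another library stood over 2 times above the rest for few genes, 49 in WT R4, 2 in KO R4 and none in the other 5. None of the 10 genes could be among these, since KO R1 was the highest library for each of them. The ratio differed between the genes, from 43.9 for Aldh1a2 and 28.7 for Ptgds to 3.53 for Ogn and 2.69 for Bgn. Bgn, Igf2 and Ogn had the highest median levels per kb of exon elsewhere, 48.8, 24.1 and 19.3, and ratios of 2.69, 4.02 and 3.53. Ptgds and Dcn, close to Ogn with 17.6 and 17.4, had ratios of 28.7 and 17.3. Pcolce and Slc6a20a, both with 6.57, had 4.59 and 5.44. Lum with 3.96 had 7.79 and Foxc1 with 0.931 had 1.52, so the ratio did not simply follow the level.

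Per kilobase of exon, the order of the genes therefore changed. In the 7 other libraries Bgn came first with 40.4 to 57.0 normalized counts per kb, above the range of each other gene. Igf2 with 16.6 to 27.9, Ogn with 14.2 to 22.7, Ptgds with 5.12 to 37.7 and Dcn with 4.98 to 19.8 came next, with overlapping ranges. Pcolce (5.57 to 9.28), Slc6a20a (3.09 to 8.27) and Lum (1.30 to 5.86) overlapped as well, Lum also with Foxc1 (0.220 to 1.69), and Aldh1a2 was last by its median of 0. In KO R1 Ptgds came first with 1083 normalized counts per kb, followed by Dcn with 342, Bgn with 153, Aldh1a2 with 119, Igf2 with 112 and Ogn with 80.2. Lum (45.7), Slc6a20a (45.0) and Pcolce (42.6) lay close together, and Foxc1 was last with 2.57. As a share of the sum per kb over the 10 genes, Ptgds took 53.5% in KO R1 and 4.09% to 24.3% in the others, whereas Bgn took 7.56% against 27.1% to 39.0%, and Aldh1a2 took 5.87% against 0 to 1.74%. Dcn, at 16.9%, was also above its range of 3.2% to 14.6%, and Igf2, Ogn, Pcolce, Slc6a20a and Foxc1 had lower shares in KO R1 than in any other library. A single library gives no replicate check of this make-up.

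**Figure D2:**
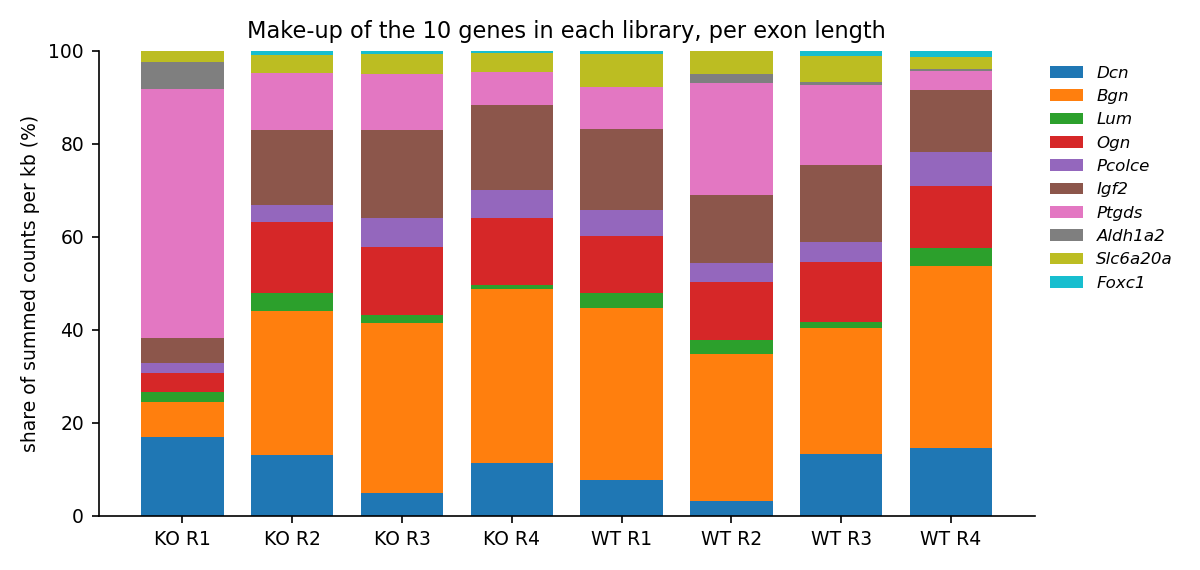
Share of each of the 10 genes in their summed counts per kilobase of exon (vertical axis, in percent), 1 stacked bar per library. Ptgds fills 53.5% of the bar of KO R1 and at most 24.3% of any other, and Bgn 7.56% against at least 27.1%.

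KO was then compared with WT over all 8 libraries with edgeR's quasi-likelihood test, which took in 12699 genes. A gene is said here to pass the relaxed threshold where its unadjusted p was under 0.05 and its log2 fold change was over 0.25 in size. Lum, Foxc1 and Aldh1a2 did not pass the filter on low counts, and of the 7 genes tested 5 passed the relaxed threshold with higher levels in KO, where 2.45% of all genes tested did so. None of the 7 passed an adjusted p of 0.05, which 0.0709% of all genes did, and all 7 had a log2 fold change above 0, as 45.6% of all genes did, with a median log2 fold change of 1.16 beside -0.01 over all genes. The matrix proteoglycan Dcn had a log2 fold change of 2.93 (SE 1.16, unadjusted p = 0.0277, edgeR adjusted p = 0.624). Ptgds had 3.70 (SE 1.44, unadjusted p = 0.0264, edgeR adjusted p = 0.618). Igf2, Ogn and Bgn had 1.16 (SE 0.46), 1.04 (SE 0.43) and 0.76 (SE 0.34), with unadjusted p of 0.0284, 0.0329 and 0.0452 and edgeR adjusted p of 0.625, 0.631 and 0.646. Pcolce, with 1.19 (SE 0.57, unadjusted p = 0.0599), and Slc6a20a, with 1.10 (SE 0.69, unadjusted p = 0.14), did not pass. Group means carried the spread of 1 library, as in Dcn, with 187 ± 317 normalized counts (SD, n = 4) over the KO libraries against 25.2 ± 13.9 (SD, n = 4) over the WT libraries. Ogn was the only one of the 7 whose KO libraries all lay above all WT libraries (2-sided exact permutation test, p = 0.0286, the smallest that 4 against 4 can give), which 2.64% of all genes tested did in that direction. The 3 genes under the filter had 2-sided exact permutation p-values of 0.686 for Lum, 0.6 for Foxc1 and 1.0 for Aldh1a2. The value for Aldh1a2 was fixed by its 269 normalized counts in KO R1 and 0 in the other KO libraries. Every relabelling of the libraries then gives a difference of means at least as large, so this test could not respond to the gene.

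The count of 5 depended on single libraries and on the tool. It was 1 without KO R1, 0 without WT R1, 1 without WT R2, 2 without WT R3, 1 without WT R4 and 6 without any one of KO R2, R3 or R4, when Pcolce was added. DESeq2 gave 3 (Ogn, Igf2 and Pcolce) and no p-value for Dcn and Ptgds, limma with library quality weights gave 0, and robust dispersions gave 1 (Ogn).

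**Figure D3:**
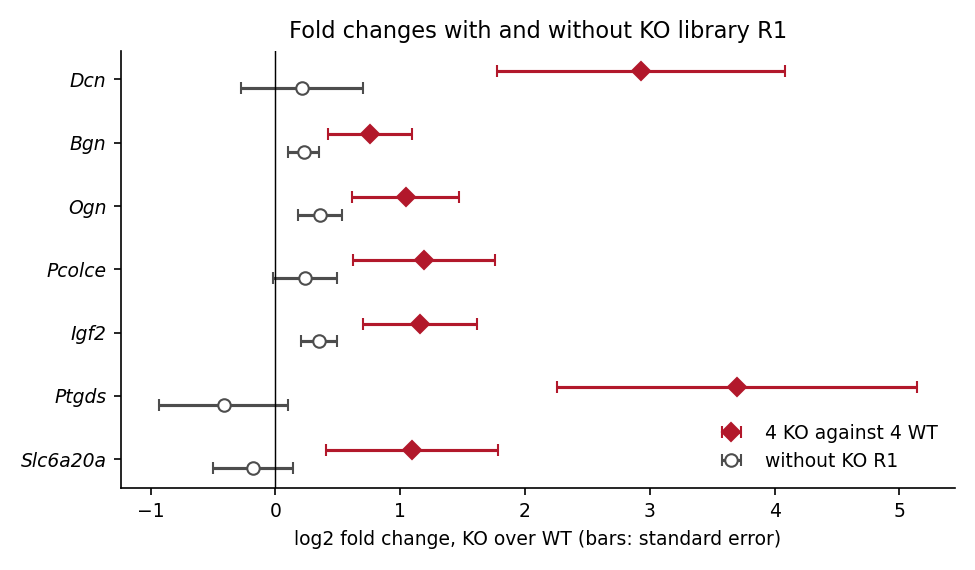
Log2 fold change of KO over WT (horizontal axis; bars are standard errors from edgeR) for the 7 genes that passed the filter, with 4 KO libraries (diamonds) and without KO R1 (open circles). All 7 diamonds are above 0, from 0.76 to 3.70, and the circles lie between -0.41 and 0.36.

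Without KO R1, 12899 genes were tested, the same 7 of the 10 among them. Igf2 was then the 1 gene past the relaxed threshold, where 1.81% of all genes tested were higher in KO, and none passed an adjusted p of 0.05, as 0.0465% of all genes did. Igf2 averaged 146 ± 12.1 normalized counts (SD, n = 3) over KO R2 to R4 and 116 ± 18.7 (SD, n = 4) over the WT libraries, with a log2 fold change of 0.35 (SE 0.15, unadjusted p = 0.0377, edgeR adjusted p = 0.865). Its libraries overlapped, since KO R2 was below WT R3, and it no longer passed without KO R3, KO R4, WT R1 or WT R4, with DESeq2 (unadjusted p = 0.052) or with the running number as block (unadjusted p = 0.0979). With limma's library quality weights Igf2 passed together with Ogn and Bgn, at unadjusted p of 0.0121, 0.0193 and 0.0357. Ogn had 56.3 ± 1.37 (SD, n = 3) against 44.0 ± 6.25 (SD, n = 4) and a log2 fold change of 0.36 (SE 0.18, unadjusted p = 0.075, edgeR adjusted p = 0.877). All 3 KO libraries stayed above all 4 WT libraries (2-sided exact permutation test, p = 0.0571, the smallest that 3 against 4 can give), as 3.5% of all genes did in that direction. Bgn had 186 ± 20.0 (SD, n = 3) against 162 ± 15.5 (SD, n = 4) and 0.22 (SE 0.12, unadjusted p = 0.0975). Dcn had 0.21 (SE 0.49) in place of 2.93, Pcolce had 0.23 (SE 0.26), and Slc6a20a and Ptgds had -0.18 (SE 0.32) and -0.41 (SE 0.52), none of them past the relaxed threshold (unadjusted p between 0.383 and 0.674). The median log2 fold change of the 7 genes was 0.22, and 5 of them were above 0, where 49.9% of all genes were. Aldh1a2 had no count in the 3 KO libraries and 10 in the 4 WT libraries, a difference that did not pass (2-sided exact permutation test, p = 0.229). With no filter on low counts, edgeR put Aldh1a2 past the relaxed threshold in both comparisons in opposite directions, higher in KO with all libraries (unadjusted p = 0.0304, adjusted p = 0.706) and lower without KO R1 (unadjusted p = 0.0182, adjusted p = 0.874). The fitted fold change without KO R1 is not given here, since with a group at 0 it depends on the prior count. Lum and Foxc1 gave p of 0.686 and 0.914 in the same exact permutation test.

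**Figure D4:**
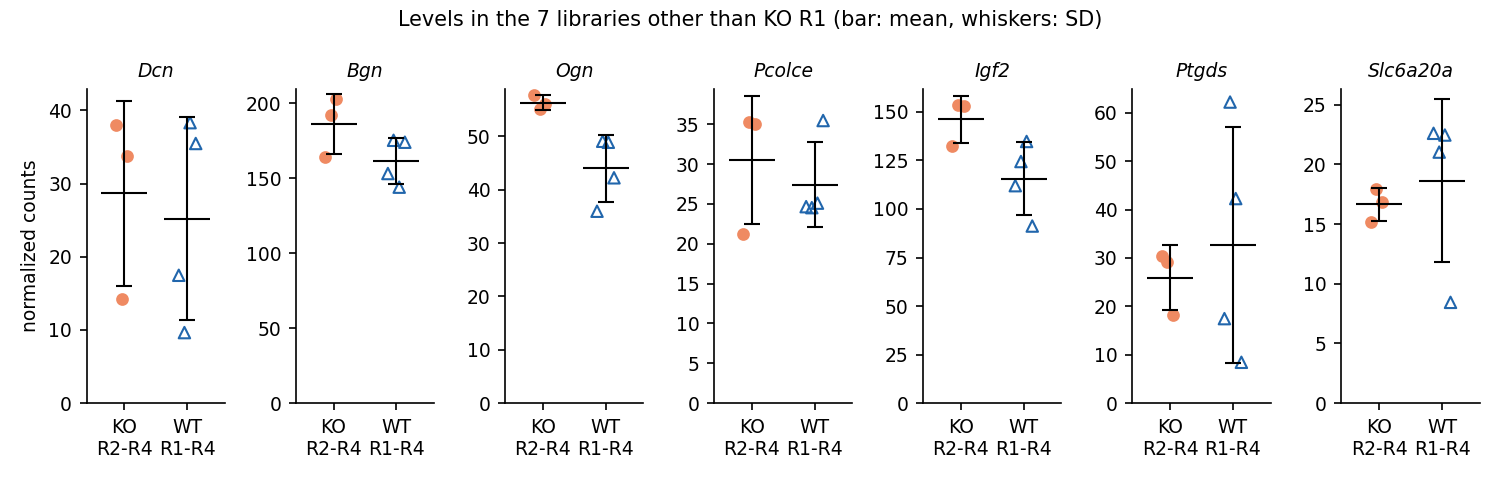
Normalized counts (vertical axes, each from 0) of the 7 tested genes in KO R2 to R4 (circles) and WT R1 to R4 (triangles), with the mean as a bar and the SD as whiskers. The genotypes are apart in Ogn, with 55.1 and more against 49.1 and less, and overlap in the other 6.

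Genes that act with the 10 were examined in lists from which the 10 were removed. Of the other small leucine-rich proteoglycans 5 of 13 passed the filter. Podn, the gene of podocan, passed the relaxed threshold with lower levels in KO, 101 normalized counts in KO R1 and 125 to 203 in the other 7, with a log2 fold change of -0.56 (SE 0.13, unadjusted p = 0.00116, edgeR adjusted p = 0.307) and -0.46 without KO R1. At that threshold 1.8% of all genes tested were lower in KO, and 1.72% without KO R1. Ecm2, Aspn, Optc and Tsku did not pass, with log2 fold changes from -0.15 to 0.19, and KO R1 was not the highest library for any of the 5. Below the filter, fibromodulin (Fmod) had 49.97 normalized counts in KO R1 (39 counts) and at most 3.51 elsewhere, and Prelp 19.2 and at most 6.75. Omd had 6.41 and at most 7.42, Kera, Epyc, Chad and Nyx had 1 count each in KO R1 and did not exceed the highest other library, and Podnl1 had no count.

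In the retinoic acid pathway 1 of 13 genes tested passed the relaxed threshold, higher in KO, as 2.45% of all genes tested did. Rarb, a receptor gene that retinoic acid itself induces, had a log2 fold change of 1.02 (SE 0.28, unadjusted p = 0.00411, edgeR adjusted p = 0.44) and 0.83 without KO R1. It had 47.4 normalized counts in KO R1 and 11.9 to 31.9 in the others. The cellular retinoic acid carrier Crabp2 had 0.73 (SE 0.44) and did not pass, although it had 53.8 in KO R1 and at most 21.0 elsewhere. None of 14 genes of the insulin-like growth factor system passed, Igf2r, Igfbp3 and Igfbp7 having log2 fold changes of -0.12, -0.29 and 0.31 with the smallest p. The receptor Igf2r, which clears IGF2, had 2342 normalized counts in KO R1 and 2091 to 2711 in the others. None of 10 prostaglandin genes passed either, with Tbxas1, Hpgd and Slco2a1 at 0.32, -0.24 and -0.12, and KO R1 did not exceed 2 times the next library for any of the 10.

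Of 24 genes of procollagen processing and crosslinking 1 passed, Serpinh1, the collagen chaperone of the endoplasmic reticulum, with 0.38 (SE 0.16, unadjusted p = 0.034, edgeR adjusted p = 0.631) and 0.18 without KO R1. It had 1394 normalized counts in KO R1 and 662 to 862 elsewhere. Loxl2 and Adamts3 had 0.66 and 0.17 and did not pass. None of 10 tested solute carriers passed with all libraries, where Slc1a5, Slc19a3 and Slc23a2 had -0.21, 0.53 and -0.08, and Slc1a5 passed without KO R1, lower in KO at -0.34 (unadjusted p = 0.0126). Of 9 mesenchyme transcription factors Foxp1, which cortical neurons also express, passed with 0.31 (SE 0.09, unadjusted p = 0.00615, edgeR adjusted p = 0.479) and 0.37 without KO R1. Zic2 and Zic1, which meningeal progenitors use, had 0.48 and 0.79 and did not pass, with 75.6 and 176 normalized counts in KO R1 against at most 53.8 and 110. The 43 tested genes of the other meningeal fibroblast list gave 5 higher and 3 lower in KO, and 1 and 1 of 47 without KO R1. Over all genes tested, 2.45% passed higher in KO and 1.8% lower, and 1.81% and 1.72% without KO R1. Cdh11 was lower with -0.31 and -0.35, while Fbn1 and Lgals1 were higher with 0.29 and 0.97 in all libraries and did not pass without KO R1. KO R1 was the highest library for 28 of the 43, and the share of all genes for which it was highest was not counted. It was over 2 times the next library for 10 of the 43, and for 0.63% of all genes tested.

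Several transporters and enzymes below the filter had their counts mostly in KO R1. They were named after their values were seen. Slc6a13, a GABA and taurine carrier of the leptomeninges, had 463 normalized counts in KO R1 (361 counts) and at most 12.8 elsewhere. Slc22a6, the organic anion transporter of the meningeal barrier, had 225 and at most 3.51, and the sulfate transporter Slc13a4 147 and at most 5.26. Lox, which crosslinks collagen, had 71.7 and at most 4.56, Cldn11, a tight junction gene of the arachnoid barrier, 94.8 and at most 6.13, and Itih2 124 and at most 6.13. Such genes were frequent in KO R1. Of the 261 genes below the filter with at least 10 counts there, 53 or 20.3% were over 4 times the highest other library, and the same count was 4 or less in each of the other libraries. Aldh1a2 and Lum belong to the 53, and Foxc1 did not reach 10 counts.

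Lists for other cell types were read in the same way, as summed CPM. Their counts at the relaxed threshold stand beside 2.45% of all genes tested higher in KO and 1.8% lower. Without KO R1 these shares were 1.81% and 1.72%. The fibrillar collagens, with 4 of 7 genes higher in KO at the relaxed threshold and 1 higher and 1 lower without KO R1, summed to 574 in KO R1, 61.8 to 79.6 in the other KO libraries and 65.8 to 71.6 in WT. The microglia and macrophage list, none of whose 10 tested genes passed although KO R1 was the highest library for 9, summed to 126, 39.9 to 55.9 and 38.7 to 55.8. Its most abundant genes Csf1r and C1qc had 550 and 160 normalized counts in KO R1 against at most 400 and 107. The genes of border-associated macrophages were further apart, Mrc1 with 438 and at most 47.3, F13a1 with 260 and at most 10.1 and Lyve1 with 67.9 and at most 1.24, and these were named after their values were seen. The pericyte and smooth muscle list summed to 287 in KO R1, 162 to 188 in the other KO and 167 to 176 in WT, with 2 of 14 genes higher in KO, 0 without KO R1, and KO R1 the highest library for 11. Its most abundant genes Rgs5 and Notch3 were 1.15 and 1.12 times the next library in KO R1. The endothelial list summed to 515, 336 to 398 and 337 to 373, with 2 of 14 higher in both comparisons and KO R1 the highest library for 13, and its leading genes Kdr and Slc2a1 were 1.29 and 1.26 times the next library in KO R1. The sums of these 4 lists were highest in KO R1, as was that of the 10 genes, and their part in the result was not tested. How often KO R1 was the highest library over all genes tested was not counted. Of the neural lists, it was highest for 1 of 15 projection neuron, 0 of 14 progenitor, 1 of 12 interneuron and 1 of 7 Cajal-Retzius genes.

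Lists of other tissues of the head differed among themselves. The choroid plexus list, of which none of 11 genes passed the filter with all libraries, summed to 6.67 in KO R1 and 1.24 to 2.66 in the others. Of that, Aqp1 had 65.3 normalized counts in KO R1 and at most 8.22 elsewhere, Sostdc1 had 11.5 within a range of 1.32 to 14.02, and the defining marker Ttr had 3.84 within 1.86 to 15.2. For the skull bone and cartilage, skeletal muscle and red blood cell lists KO R1 was below the highest of the other 7 libraries, at 0.92, 0.83 and 0.78 times its sum. The first holds Sox9, which cortical cells express as well, the second is led by Acta1 and Des, and the third by Hbb-b2 and Hba-a1. Hba-a1, whose close copy Hba-a2 can share its reads, passed the relaxed threshold in both comparisons (2.44 and 2.24), and the sum of the red blood cell list ranged from 97.5 to 428 over the libraries without KO R1. Neural lists lay within the other libraries too, with KO R1 at 0.90 times the highest sum for Cajal-Retzius cells (Reln, Calb2), 0.93 for projection neurons (Neurod6), 0.81 for radial glia and progenitors (Fabp7, Vim) and 0.94 for interneurons (Npy, Gad1). At the relaxed threshold, where 2.45% of all genes were higher and 1.8% lower, projection neuron genes gave 3 higher and 3 lower of 15 and progenitor genes 1 lower of 14. Without KO R1, where the shares of all genes were 1.81% and 1.72%, they gave 5 higher and 3 lower and 2 lower. Npy was the only list gene to pass an adjusted p of 0.05 with all libraries (log2 fold change 0.87, edgeR adjusted p = 0.0314), and it did not pass without KO R1 (0.88, edgeR adjusted p = 0.0879). WT R4 had the lowest projection neuron sum, 1466 against 1874 to 2078 in the other 7.

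**Figure D5:**
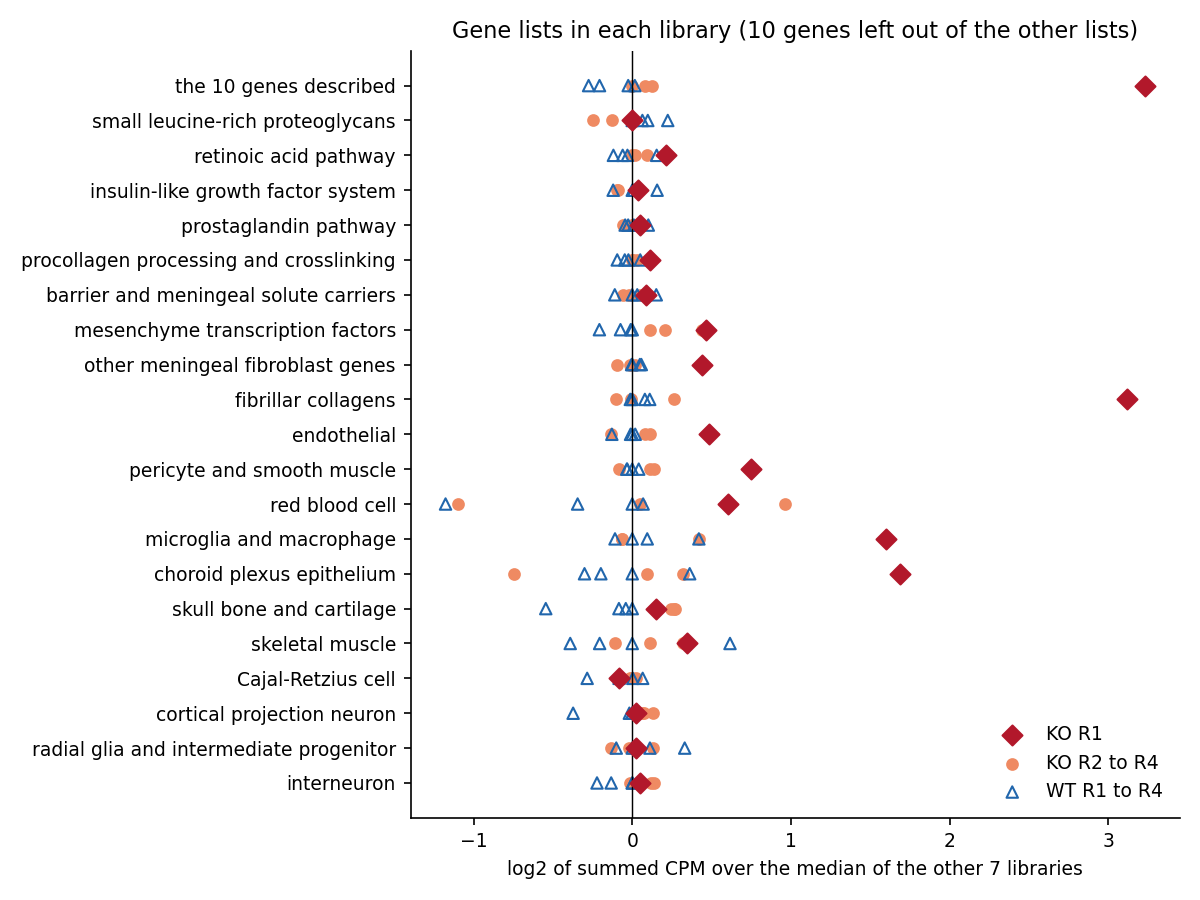
Summed CPM of each gene list in each library, as log2 of the ratio to the median of the 7 libraries other than KO R1 (horizontal axis). The diamond of KO R1 is furthest right for the 10 genes, at 271 CPM, and for the fibrillar collagens, at 574, and lies among the other libraries for the neural, bone, muscle and red blood cell lists.

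The levels of the 7 tested genes were correlated pair by pair as log2 CPM, as a description of libraries that share their depth and tissue. Over 8 libraries Pearson's r of the 21 pairs ran from 0.77 to 0.98, with a median of 0.90. Without KO R1 it ran from -0.56 (Pcolce and Ptgds) to 0.75 (Igf2 and Ogn), with a median of 0.04, and 12 of the 21 were above 0. The relation among the 7 genes thus rests on KO R1. All other tested genes were ranked by r with the mean standardized level of the 7 genes. Over 8 libraries the nearest included Col1a1 (r = 0.995), Col3a1, Col1a2, Col4a5, Lamb2, Cdh5, Col4a6, Tgm2 and Utrn (r = 0.971), and 88 of 12699 genes had r over 0.9, or 26 by Spearman's rho. Over the 7 libraries without KO R1 the nearest were 1600012H06Rik (r = 0.993), Nrip1, Epm2aip1, Ubxn11, Tpd52l2, Fbxl5, Pdlim2, Ptpn2, Zfp87 and Ltbp2 (r = 0.916), with 15 genes over 0.9, or 21 by rho, and no gene stood in both lists of 10. Among the 10 nearest over 8 libraries, Col1a1 kept an r of 0.905 over 7 and Col4a5 had 0.072.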

How the data were processed

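Whole cortices of 4 Nuak1 KO and 4 WT embryos were analysed by stranded poly-A RNA sequencing (100 bp paired-end reads). Per the study's methods and the submitters' processing notes, reads were trimmed by the authors (cutadapt 1.13, Prinseq), aligned to mm9 (TopHat2 2.0.13, SAMtools 0.1.19) and assigned to genes by HTSeq-count. The authors deposited the raw counts, not normalized. Counts over overlapping or near-identical genes may be lost or shared at that step. Cultured neurons of the study were not analysed here.

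Of 21165 rows, 4641 hold no count. Genes passing filterByExpr (99.9% of counts) were compared by the quasi-likelihood test of edgeR 4.0.16 in R 4.3.3, after TMM normalization and with Benjamini-Hochberg adjustment, genotype being the only term. The standard error is the log2 fold change divided by the square root of F. Genes under the filter were compared by 2-sided exact permutation tests of their normalized counts. Pairs of libraries of a genotype differed by a chi-square per degree of freedom of at least 5.36, so none was the same library sequenced again. This value cannot tell libraries of different embryos from separate preparations of 1 embryo. P-values measure the spread between libraries of a genotype, taken as independent. That spread holds differences of embryo, litter and sex together, since no library could be tied to a litter or a sex. Correlations used log2 CPM with a prior count of 1. Alternatives were DESeq2 1.42.0, its size factors in edgeR, 2 other filters (none, or at least 10 counts in every library), voom with quality weights (limma 3.58.1), robust dispersions, the running number as block, CPM without TMM, Spearman's rho, and each library left out. The fit was tested on simulated data.

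The 10 genes and all lists were chosen with earlier results of these data known. Named are the 10 genes, Nuak1, every small leucine-rich proteoglycan, up to 3 genes of each pathway list with the smallest p and any past an adjusted p of 0.05, the 2 most abundant genes of each cell type list, the 10 nearest genes by correlation, and Col1a1, Col1a2 and Col3a1; some genes that this rule names are not reported here. Positions are from an annotation of NCBIM37 and promoters from RefSeq. A count of 0 was given a floor of 3 counts. Intervals and floors cover counting error only.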

Additional observations from a re-analysis of the deposited data

Results flagged for a closer look

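In each genotype the highest and the lowest of the 4 libraries were examined with Dixon's test for the 10 genes and the summed lists. Of 62 groups 14 had a library apart. The nominal rate of the test would give 3.1, but it holds for independent, normally distributed values. These are counts from shared libraries, and the genes were chosen with earlier results known, so 14 cannot be read against it. KO R1 was apart among the KO libraries for Dcn (662 normalized counts), Ogn (204), Lum (94.8), Igf2 (618), Ptgds (1786), Pcolce (163), Slc6a20a (123), Aldh1a2 (269) and Bgn (546), for the sum of the 10 genes (271 CPM) and for the fibrillar collagens (574 CPM). Foxc1 was the gene for which it was not. WT R4 was apart among the WT libraries with the highest level of Pcolce (35.5 normalized counts), the lowest of Slc6a20a (8.45, or 5 counts) and the lowest sum of projection neuron genes (1466 CPM). Because the groups of genes were measured in the same libraries, these results are not independent of each other.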

How the results depend on the processing

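No tested gene of the 10 passed an adjusted p of 0.05 in any setting. With all libraries, genes past an adjusted p of 0.05 numbered 9, 70 with DESeq2, 26 with voom quality weights and 2 to 11 with 1 library left out. At the relaxed threshold 540 genes passed, 426 to 847 with 1 library left out. Of the 10 genes 5 passed, 3 with DESeq2, 0 with voom weights, 1 with robust dispersions, 1 with the running number as block, and 0 to 6 with 1 library left out. Without KO R1, genes past an adjusted p of 0.05 numbered 6, 43 with DESeq2, 10 with no filter, 3 with at least 10 counts in every library, 22 with voom weights, 3 with the block, and 3 to 20 with a further library left out. At the relaxed threshold 456 passed, 694 with voom weights and 327 to 833 with a library left out. Of the 10 genes 1 passed, 0 with DESeq2 or the block, 2 with no filter (Igf2 higher and Aldh1a2 lower in KO), 3 with voom weights (Ogn, Igf2 and Bgn), and 0 to 2 with a library left out. Directions turned in few settings. Aldh1a2, fitted with no filter, was higher in KO with all libraries and lower without KO R1. Ptgds, at -0.41 without KO R1, had 0.033 with voom weights and -0.69 to 0.13 with a library left out, and Dcn -0.11 to 0.57. With all libraries, leaving 1 out gave -0.41 to 4.28 for Ptgds and -0.18 to 1.40 for Slc6a20a, and log2 ratios of group means of -0.27 to 2.22 for Lum and -0.056 to 0.69 for Foxc1, the lowest each time without KO R1. Genes near the 10 over 8 libraries were 88, or 26 with Spearman's rho. The cause was not tested for any of these. Same-numbered KO and WT libraries had correlations of -0.02, -0.14, 0.13 and 0.26, within the -0.32 to 0.31 of differently numbered ones. Whether the numbers pair the libraries was not tested, and the labels do not state it. With all libraries DESeq2 gave log2 fold changes of 2.90 and 3.84 but no p-value for Dcn and Ptgds. Without KO R1 it gave unadjusted p of 0.707 and 0.529 for them. Depth limits Lum, Foxc1 and Aldh1a2, whose counts outside KO R1 were 11 or fewer in each library. Under the alternatives 346 values stayed on their side, 39 moved and 8 turned. These values pool counts of genes, mean levels and single genes. Only counts and mean levels could be said to have moved, by the size of their change. Single genes were judged by direction and an adjusted p of 0.05, not by the relaxed threshold. For Lum, Foxc1 and Aldh1a2 the p of the exact permutation test was used, or the adjusted p with no filter.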
